A study of Mus musculus with 58 samples.

Results

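Annexins and S100 proteins are families of calcium-binding proteins whose members meet at the inner face of the cell membrane. The genes described are the annexins Anxa1, Anxa2, Anxa3, Anxa4 and Anxa5 and the S100 genes S100a4, S100a6, S100a10, S100a11 and S100a13. They were taken by gene symbol from a table of RNA-seq read counts, where all 10 were found among 15171 genes, and all 10 passed the filter on low counts, which removed 0 genes. Annexins bind acidic phospholipids when calcium rises and take part in membrane repair, vesicle fusion, fibrinolysis and the ending of inflammation. S100 proteins are small EF-hand calcium sensors that dock on target proteins, annexins among them: S100a10 holds Anxa2 in a stable complex, and S100a11 binds Anxa1. In the injured brain both families are known from reactive astrocytes, activated microglia and invading blood cells.

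The RNA-seq libraries were made from cortex and hippocampus, frozen together, of a brain slice at the injury site in 58 C57BL/6 mice, operated at 3 months of age and killed 14 days later. Every mouse carried human APOE3 (E3) or APOE4 (E4) in place of the mouse gene on both alleles, with either both copies of Abca1 (Abca1+/+) or a single working copy (Abca1+/-). ABCA1 is the transporter that loads lipid onto apolipoprotein E. The injury (TBI) was a controlled cortical impact over the left parietal cortex, and sham mice had the anesthesia and the craniotomy without the impact, so no group was without surgery. There were 8 TBI and 8 sham E3/Abca1+/+ mice, 6 TBI and 7 sham E3/Abca1+/- mice, 7 TBI and 7 sham E4/Abca1+/+ mice, and 8 TBI and 7 sham E4/Abca1+/- mice, with both sexes in each group. Each library came from the tissue of a single mouse.

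Total counts per mouse ran from 4421308 to 37877346, so that the floor of 3 counts was passed in every mouse for 9 members and was only met, not passed, by S100a4 in 2 sham libraries. Values are CPM (read counts relative to library size), scaled with edgeR's TMM factors over all mice. Abca1+/- libraries were deeper than Abca1+/+ libraries, with medians of 18871446 and 8350020 counts, and in any comparison of Abca1 copies the difference in depth and the genotype cannot be told apart. Abca1 itself was lower in Abca1+/- than in Abca1+/+ mice averaged over isoform and injury, with a log2 fold change of −0.42 (adjusted p = 0.000816, edgeR's quasi-likelihood test). The fold change (log2) was −0.45 in E3 sham mice (adjusted p = 0.00933), −0.71 in E3 TBI mice (adjusted p = 0.118), −0.35 in E4 sham mice (adjusted p = 0.0783) and −0.19 in E4 TBI mice (adjusted p = 0.724, edgeR), so in 3 of the 4 pairs of groups Abca1 was lower on average without passing. In 16 libraries Ttr, the main transcript of the choroid plexus, stood at 275 CPM or more, while the others had at most 21.3 CPM. These 16 mice were in every group but E3/Abca1+/+ sham, and each result that changed without them is given both ways.

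All 5 S100 members lie on mouse chromosome 3, which also holds Anxa5 (GRCm38, chr3:36448923-36475887). S100a4 (chr3:90603770-90606045) and S100a6 (chr3:90612894-90614414) are neighbours 6848 bases apart, and S100a11 (chr3:93520496-93526288) ends 28828 bases before S100a10 (chr3:93555117-93564645) begins. S100a13 (chr3:90514233-90524581) shares 98 bases with S100a1, and S100a11 has an annotated pseudogene copy, so reads of these genes could have been split or shared. Anxa1 is at chr19:20373434-20390671, Anxa2 at chr9:69453683-69491792, Anxa3 at chr5:96793385-96845968 and Anxa4 at chr6:86736840-86793634.

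Start-site sequence from RefSeq (GRCm38.p6) was at hand for 8 of the 10 members, Anxa3 and S100a10 being the exceptions. The 250 bases before the start site are printed for the 3 members whose window, of 250 bases before to 50 after the start, held, on either strand, the AP-1 letters TGANTCA or the NF-kB letters (GGGA, then any base, then TTTCC). AP-1 (Fos and Jun) and NF-kB are transcription factors of the injury and inflammatory response. Each sequence is written 5′ to 3′ on the strand of the gene with these letters in capitals, Anxa2 from chr9:69453433-69453682 (plus strand), Anxa4 from chr6:86793585-86793834 (minus strand) and S100a11 from chr3:93520246-93520495 (plus strand).
Anxa2: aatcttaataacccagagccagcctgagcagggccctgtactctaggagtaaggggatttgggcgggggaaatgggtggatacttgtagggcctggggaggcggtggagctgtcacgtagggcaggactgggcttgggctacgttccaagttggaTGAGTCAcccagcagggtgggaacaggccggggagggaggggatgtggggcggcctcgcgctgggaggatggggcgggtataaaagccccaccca
Anxa4: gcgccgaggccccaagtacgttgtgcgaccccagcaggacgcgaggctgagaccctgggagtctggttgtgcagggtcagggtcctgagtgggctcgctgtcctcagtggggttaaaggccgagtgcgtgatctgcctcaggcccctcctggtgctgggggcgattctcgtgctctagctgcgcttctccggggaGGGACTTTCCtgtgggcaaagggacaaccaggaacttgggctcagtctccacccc
S100a11: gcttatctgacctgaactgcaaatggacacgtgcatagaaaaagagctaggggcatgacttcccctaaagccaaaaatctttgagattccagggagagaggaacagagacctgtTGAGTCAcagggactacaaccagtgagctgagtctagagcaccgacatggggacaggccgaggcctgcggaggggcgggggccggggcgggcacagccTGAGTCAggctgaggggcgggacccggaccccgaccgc

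The AP-1 letters began 95 bases before the start of Anxa2 and 136 and 38 bases before that of S100a11, and stood in 2 of the 8 members against 7.81% of 32851 promoters. The NF-kB letters began 55 bases before 1 start site of Anxa4, in 1 of 8 members against 0.411% of promoters. A further start site of Anxa4 (window chr6:86775065-86775364, not printed) held the C/EBP letters and not the NF-kB letters. Members were counted by any of their windows, while the shares are per promoter. Of the other letters searched on both strands, Sp1 GGGCGG was in 3 members (35.7% of promoters), C/EBP TTGCNNAA in 2 (10.8%), TEAD GGAATG in 1 (14.7%) and STAT TTCCNGGAA in 0 (1.15%). A match of letters is a description of the window and not a binding site.

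Averaged over the 4 genotypes, all 10 members rose after TBI (edgeR's quasi-likelihood test, with p-values adjusted over the whole table after Benjamini and Hochberg and called under 0.05), where 29% of all genes tested rose. Their median log2 fold change, called log2 change from here on (SE, its standard error), was 1.15, beside 0.01 over all genes, and it ran from 0.39 for S100a10 to 2.18 for S100a4. All 10 members rose in E3/Abca1+/+ mice, where 12.5% of all genes rose, in E4/Abca1+/+ mice, where 9.08% rose, and in E4/Abca1+/- mice, where 17.7% rose. In E3/Abca1+/- mice 8 members rose, against 13.7% of all genes. Anxa1 and S100a10 did not pass there, with log2 changes of 0.57 (adjusted p = 0.163) and 0.27 (adjusted p = 0.0691, edgeR). The tissue is bulk, so more cells that express a gene and more of its RNA per cell cannot be told apart. The members and the gene and marker lists used below were chosen with earlier results of these data known. Setting them beside the share or median of all genes therefore describes these lists and is no test of them.

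**Figure D1:**
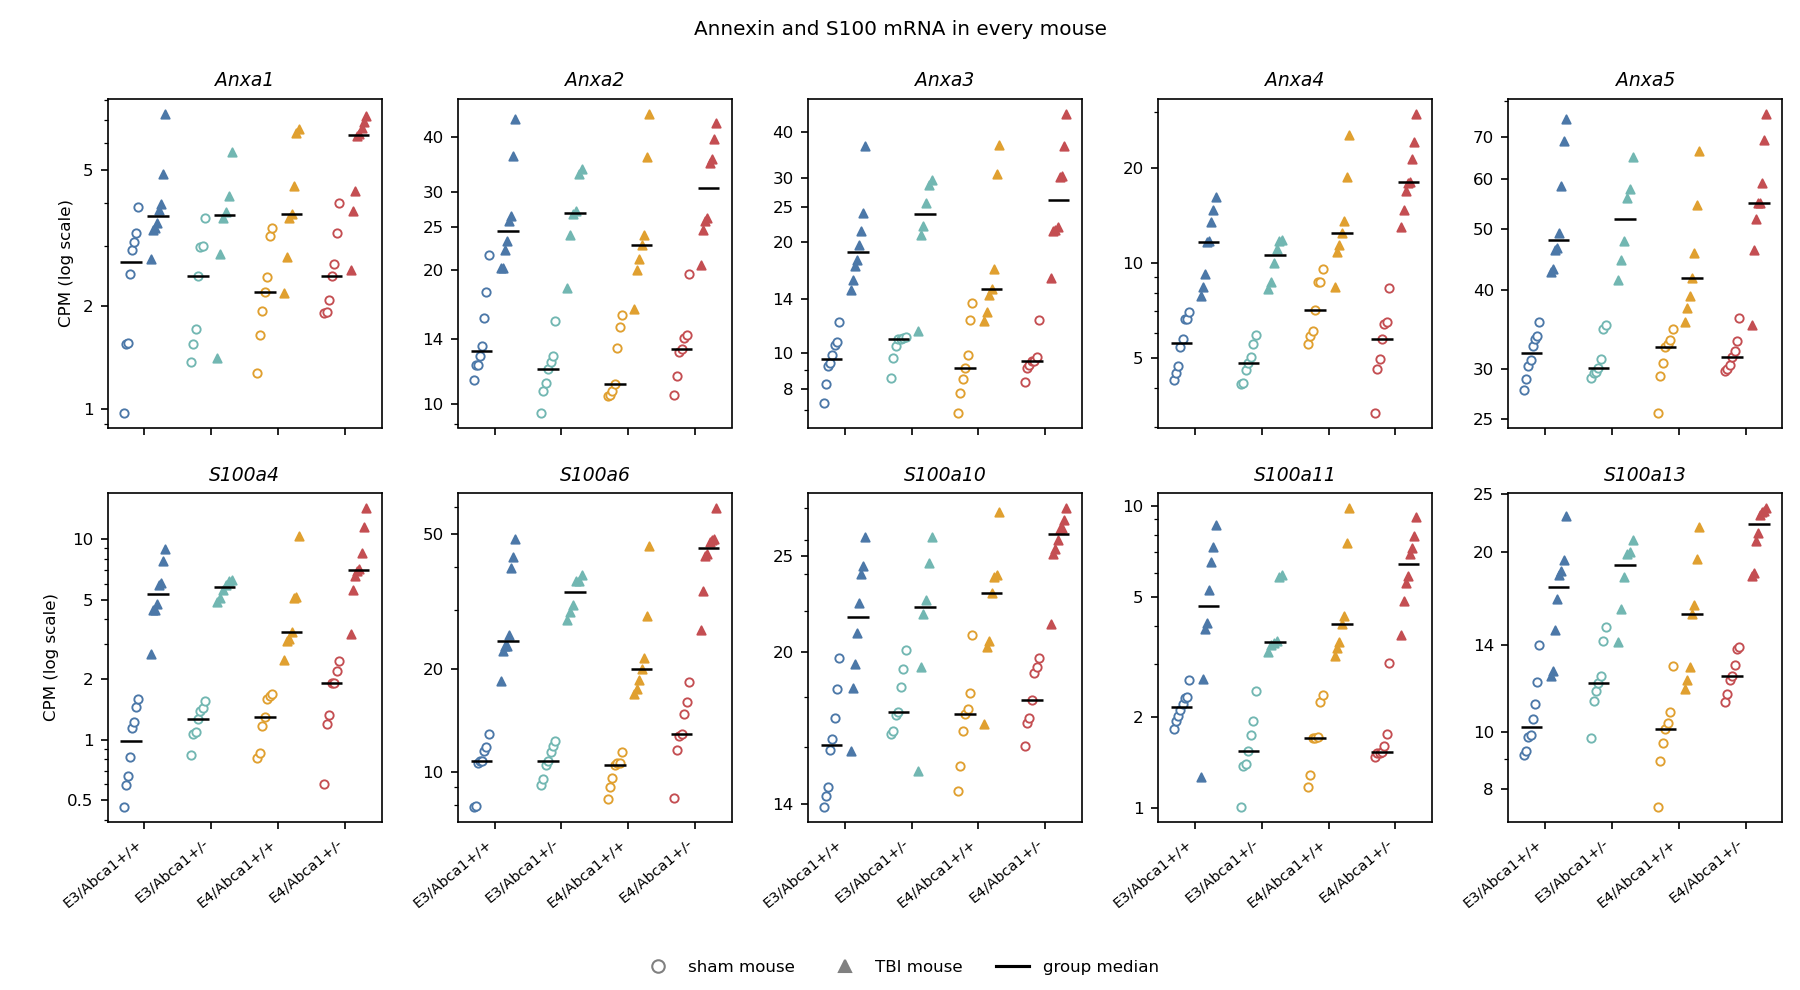
CPM of each member in every mouse on a logarithmic axis, by genotype, with open circles for sham mice, triangles for TBI mice and bars for group medians. TBI medians lie above sham medians in all 4 genotypes for each of the 10 genes, and S100a4 is the gene whose 29 TBI mice all lie above all 29 sham mice.

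Within a genotype, every TBI mouse lay above every sham mouse for 5 members in E3/Abca1+/+ mice, against 4.36% of all genes, for 7 in E3/Abca1+/- (6.57% of genes), for 5 in E4/Abca1+/+ (3.76%) and for 8 in E4/Abca1+/- mice (7.36%). S100a4 and S100a6 were separated in this way in each of the 4 genotypes, and Anxa1 in 0 of them. Over all mice 1 member, S100a4, was separated, as were 1.05% of all genes.

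Anxa2, the annexin that anchors plasminogen and its activator at the cell surface, had 9.56 to 21.7 CPM in sham mice (median 12.8, n = 29) and 16.3 to 45.1 CPM in TBI mice (median 25.9, n = 29). The ranges overlapped, with 22 TBI mice above every sham mouse. Over the 4 genotypes the log2 change averaged 1.09, SE 0.09 (adjusted p = 1.76e-15, edgeR), and it lay between 0.91 in E3/Abca1+/+ and 1.18 in E3/Abca1+/- mice.

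Anxa1, a glucocorticoid-induced protein that ends neutrophil entry through formyl peptide receptors, was the member with the lowest level per length, and its TBI and sham mice overlapped in every genotype. Sham mice had 0.975 to 3.99 CPM (median 2.45) and TBI mice 1.40 to 7.29 CPM (median 3.82). In E3/Abca1+/- mice 3 of 6 TBI mice were above every sham mouse, and in E4/Abca1+/- mice 6 of 8. Its log2 change over the genotypes was 0.80 (SE 0.14, adjusted p = 1.41e-06, edgeR) and ran from 0.57 in E3/Abca1+/- to 1.02 in E4/Abca1+/- mice. In the shallower Abca1+/+ groups the call rested on few counts, 6 to 89 per mouse. It was lost in 4 of 16 fits that left out 1 E3/Abca1+/+ mouse (TBI replicate 8 or sham replicate 1, 3 or 8) and in 9 of 14 that left out 1 E4/Abca1+/+ mouse (TBI replicate 3, 5, 6 or 7 or sham replicate 1, 3, 4, 5 or 7), with adjusted p up to 0.0873 and 0.103, and after thinning to equal totals, where the log2 changes were 0.71 beside 0.73 (adjusted p = 0.0784) and 0.80 beside 0.83 (adjusted p = 0.158). Without the mice high in Ttr the log2 change was 0.58 in E4/Abca1+/+ (adjusted p = 0.267) and 0.91 in E4/Abca1+/- mice (adjusted p = 0.0511, edgeR). In E3/Abca1+/- mice Anxa1 passed without TBI replicate 1, the mouse at 1.40 CPM (adjusted p = 0.0322, edgeR).

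Anxa5, known for binding the phosphatidylserine that dying cells expose, was among the most abundant members. It had 25.6 to 36.1 CPM in sham mice (median 31.1) and 35.3 to 76.2 CPM in TBI mice (median 49.3). The ranges touched at their edge, 27 of 29 TBI mice lying above every sham mouse. Its log2 change of 0.71 had an SE of 0.06 (adjusted p = 5.59e-15, edgeR).

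Anxa3, an annexin of neutrophils and microglia, had 6.90 to 13.7 CPM in sham mice (median 9.71) and 11.5 to 44.7 CPM in TBI mice (median 21.5). The ranges overlapped at their edge, and 26 TBI mice lay above every sham mouse. The log2 change was 1.21 (SE 0.10, adjusted p = 5.90e-15, edgeR), from 1.03 in E4/Abca1+/+ to 1.49 in E4/Abca1+/- mice.

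Anxa4, an annexin of epithelia that binds membranes and vesicles, had injury differences from 0.92 to 1.74 (log2) in the 4 genotypes. In E4/Abca1+/- mice it had 3.34 to 8.33 CPM after sham surgery (median 5.74) and 13.02 to 29.6 CPM after TBI (median 18.0), a log2 change of 1.74 (SE 0.19, adjusted p = 3.29e-06, edgeR). In E4/Abca1+/+ mice it had 5.53 to 9.51 CPM (median 7.08) and 8.37 to 25.5 CPM (median 12.4), a log2 change of 0.92 (adjusted p = 0.00701, edgeR). E3/Abca1+/+ TBI mice had 7.86 to 16.1 CPM and E3/Abca1+/- TBI mice 8.23 to 11.8 CPM, above sham ranges of 4.25 to 6.95 and 4.11 to 5.89 CPM. TBI and sham mice overlapped in E4/Abca1+/+ mice and in no other genotype. The log2 change over the genotypes was 1.21 (SE 0.09, adjusted p = 1.15e-16, edgeR). Without the mice high in Ttr it was 0.67 in E4/Abca1+/+ mice and no longer passed (adjusted p = 0.0581, edgeR).

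S100a10, the S100 protein that lacks calcium binding and pairs with Anxa2, was the most abundant member per length in sham mice and moved least. It had 13.9 to 20.8 CPM in sham mice (median 17.3) and 15.1 to 28.0 CPM in TBI mice (median 23.8). Some TBI mice lay among sham mice in 3 genotypes, and TBI mice lay above them all in E4/Abca1+/- mice, at 21.4 to 28.0 against 16.1 to 19.7 CPM. The log2 change was 0.39 (SE 0.05, adjusted p = 4.84e-10, edgeR); that of its partner Anxa2 was 1.09.

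The E3/Abca1+/- value of S100a10, 0.27, passed without TBI replicate 3 (adjusted p = 0.00377) and without the mice high in Ttr (0.33, adjusted p = 0.0390, edgeR). The E4/Abca1+/+ value of 0.37 then did not (0.35, adjusted p = 0.0653).

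S100a11, the partner of Anxa1, had 1.01 to 3.01 CPM in sham mice (median 1.75) and 1.27 to 9.80 CPM in TBI mice (median 4.82). A single E3/Abca1+/+ TBI mouse, at 1.27 CPM from 6 counts, lay below every sham mouse of its genotype, and in the other 3 genotypes TBI and sham mice did not overlap. The log2 change over the genotypes was 1.49 (SE 0.13, adjusted p = 3.00e-15, edgeR), from 1.17 in E3/Abca1+/+ to 1.82 in E4/Abca1+/- mice.

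S100a4, a cytoskeletal and secreted S100 protein of migrating fibroblasts and leukocytes, had the largest log2 change of the members, 2.18 (SE 0.14, adjusted p = 1.22e-19, edgeR). In E3/Abca1+/+ mice it had 0.464 to 1.60 CPM after sham surgery (median 0.985) and 2.68 to 8.97 CPM after TBI (median 5.33). In E3/Abca1+/- mice the values were 0.845 to 1.56 (median 1.28) and 4.87 to 6.28 CPM (median 5.77). The injured E3/Abca1+/- mice were close together, and no sham mouse of any genotype reached the lowest TBI mouse. E4/Abca1+/+ mice had 0.810 to 1.70 (median 1.29) and 2.51 to 10.4 CPM (median 3.46), and E4/Abca1+/- mice 0.601 to 2.47 (median 1.92) and 3.36 to 14.3 CPM (median 7.03). The log2 changes in this order of genotypes were 2.47, 2.18, 1.78 and 2.22, with adjusted p from 3.50e-08 to 0.00095 (edgeR). The lowest sham value came from 3 counts.

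S100a6 (calcyclin), an S100 protein of proliferating cells and astrocytes, moved with the smallest adjusted p of the members, at a log2 change of 1.52 (SE 0.09, adjusted p = 8.65e-21, edgeR). After sham surgery it had 7.89 to 12.9 CPM in E3/Abca1+/+ (median 10.8), 9.16 to 12.3 in E3/Abca1+/- (median 10.7), 8.33 to 11.4 in E4/Abca1+/+ (median 10.4) and 8.38 to 18.4 CPM in E4/Abca1+/- mice (median 12.9). After TBI the same genotypes had 18.5 to 48.3 (median 24.3), 28.0 to 37.9 (median 33.7), 17.0 to 46.0 (median 20.1) and 26.2 to 59.6 CPM (median 45.6). No genotype's TBI and sham mice overlapped. Of the 4 sham groups E4/Abca1+/- reached highest, and 27 of 29 TBI mice were above every sham mouse. The log2 change was 1.24 in E4/Abca1+/+ mice and 1.51 to 1.66 in the other 3 genotypes.

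S100a13, which carries proteins without a signal peptide out of the cell, had 7.48 to 15.0 CPM in sham mice (median 11.2) and 11.8 to 23.7 CPM in TBI mice (median 18.5). TBI and sham mice overlapped in every genotype but E4/Abca1+/-. Its log2 change was 0.67 (SE 0.06, adjusted p = 3.53e-14, edgeR), from 0.57 in E3/Abca1+/- to 0.75 in E4/Abca1+/- mice.

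**Figure D2:**
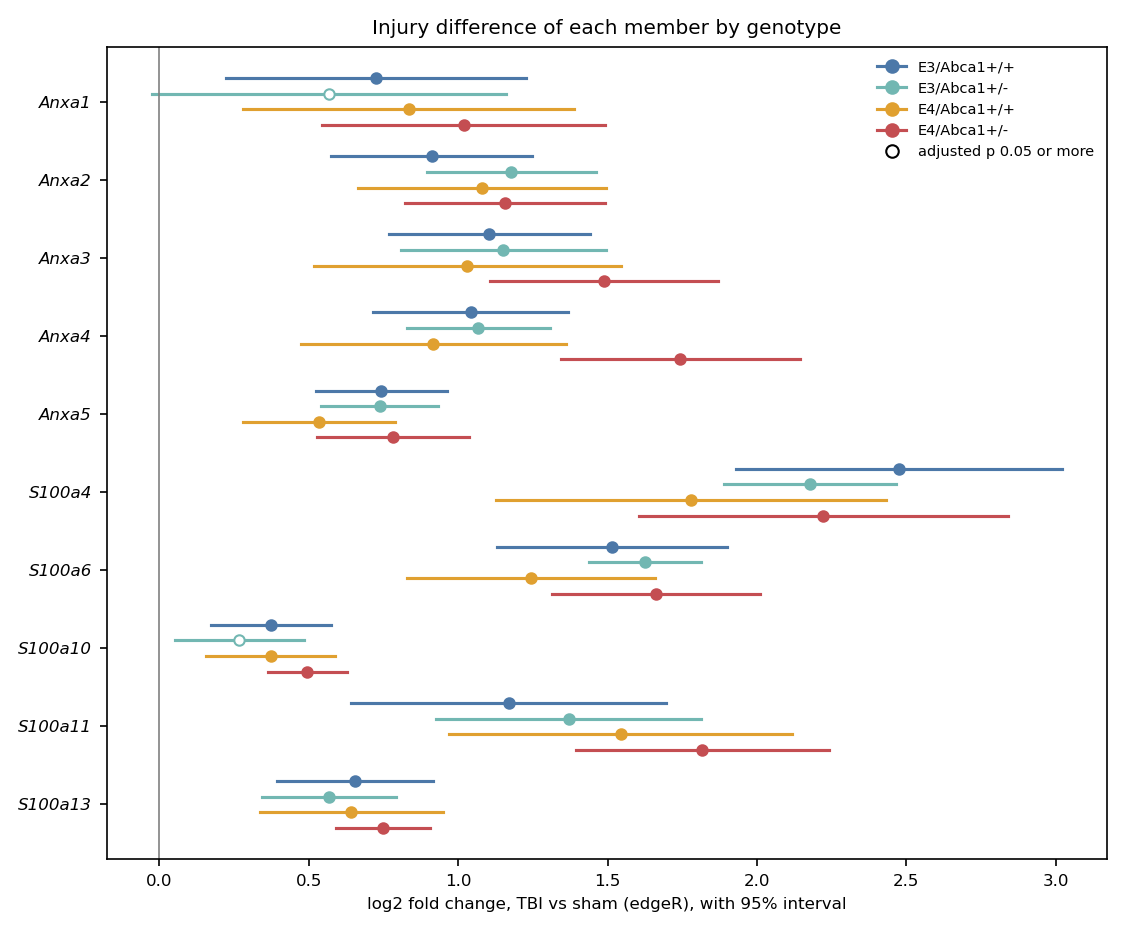
Log2 fold change of TBI against sham for each member in each genotype, with 95% intervals; filled circles passed an adjusted p of 0.05 in edgeR's quasi-likelihood test. All 40 values are above 0, and the 2 open circles are Anxa1 and S100a10 in E3/Abca1+/- mice.

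Levels of different genes were compared as CPM per kilobase of exon. In sham mice S100a10 led with 21.6 ± 2.26 CPM per kilobase (SD, n = 29), followed by Anxa5 with 18.2 ± 1.46, S100a13 with 15.9 ± 2.55, S100a6 with 13.8 ± 2.89 and Anxa2 with 9.17 ± 1.96. Anxa5 and S100a13 were within 1 SD of each other, as were S100a13 and S100a6. The lower 5 were Anxa3 at 3.76, S100a11 at 3.61, Anxa4 at 2.78, S100a4 at 2.59 and Anxa1 at 1.29 CPM per kilobase, each within 1 SD of the next down to S100a4. In TBI mice the order changed at the top: S100a6 came first with 41.1 ± 14.5 CPM per kilobase (n = 29), then Anxa5 with 30.2 ± 6.69 and S100a10 with 28.5 ± 4.47, neighbours that did not differ beyond 1 SD. S100a4 moved from the ninth place to the sixth, at 12.2 ± 5.39 CPM per kilobase, while Anxa1 stayed last at 2.33 ± 0.873. Below S100a4 came S100a11 at 10.3, Anxa3 at 8.75 and Anxa4 at 6.73, each within 1 SD of the one before, so these places are not resolved. All reads of a gene were set against its whole exon length, so these levels assume full-length transcripts.

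For all 10 members the E4/Abca1+/- TBI mice had the highest mean of the 4 injured groups, as did 35.2% of all genes. The lowest injured mean was in E4/Abca1+/+ mice for 6 members (26.8% of all genes), in E3/Abca1+/- mice for 3 (25.6%) and in E3/Abca1+/+ mice for 1 (21.4%). Whether these groups differed was tested separately for Abca1 copies and for the isoform.

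In injured E4 mice, Abca1+/- against Abca1+/+, S100a6 was higher by a log2 change of 0.87 (SE 0.20, adjusted p = 0.0418, edgeR). In this fit it was the only member of 10 to pass, where 0.547% of all genes were called higher and 1.39% in either direction. The values, 26.2 to 59.6 against 17.0 to 46.0 CPM, overlapped, and 1 Abca1+/+ mouse lay at 46.0 with the others at 17.0 to 28.8 CPM. All 10 members were higher on average in the Abca1+/- mice, with a median log2 change of 0.39 beside 0.001 over all genes, but S100a4 (0.81, adjusted p = 0.175), S100a13 (0.45, adjusted p = 0.0751) and S100a10 (0.21, adjusted p = 0.207, edgeR) did not pass. S100a13 passed with DESeq2's Wald test (adjusted p = 0.0137), with sex as a covariate (adjusted p = 0.0449) and in 1 fit over all 58 mice (adjusted p = 0.00825, edgeR), and S100a4 in the last of these (adjusted p = 0.0250). At an unadjusted 0.05 there were 4 members and 18.2% of genes. The S100a6 call was lost in 13 of 15 fits without 1 mouse (adjusted p up to 0.116), all but those without E4/Abca1+/+ TBI replicate 6 and E4/Abca1+/- TBI replicate 4, after thinning to equal totals (0.82, adjusted p = 0.0741) and without the mice high in Ttr (0.92, adjusted p = 0.207, edgeR). Without E4/Abca1+/+ TBI replicate 6, the mouse at 46.0 CPM, 3 members passed, S100a4 and S100a13 being the others. The share of all genes called in that fit is not given here, so the larger count may not be particular to the members.

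The same comparison called 0 members in E4 sham mice by edgeR, where 0.903% of genes were called. At an unadjusted p, 3 members were past 0.05, as were 15.7% of genes: S100a13 (0.35, adjusted p = 0.0777), S100a6 (0.45, adjusted p = 0.126) and Anxa4 (−0.39, adjusted p = 0.285, edgeR). DESeq2's Wald test called S100a13 there. In E3 sham mice 0 were called (2.2% of genes) and 1 was past an unadjusted 0.05 (16.5% of genes), S100a11 at −0.39 (adjusted p = 0.266), and in E3 TBI mice 0 were called (0.178% of genes) and 0 were past it (8.99% of genes), and DESeq2 called 0 in both E3 comparisons. Averaged over isoform and injury, 3 members were higher in Abca1+/- mice, where 9.49% of all genes were. S100a13 was higher by 0.28 (SE 0.06, adjusted p = 0.000625), S100a6 by 0.37 (SE 0.09, adjusted p = 0.00276) and S100a4 by 0.39 (SE 0.14, adjusted p = 0.0483, edgeR). After thinning to equal totals these 3 still passed (adjusted p = 0.0206, 0.0137 and 0.0389). S100a4 did not pass without E4/Abca1+/- sham replicate 2 (adjusted p = 0.0714) or TBI replicate 8 (adjusted p = 0.0691, edgeR), nor with DESeq2's size factors.

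**Figure D3:**
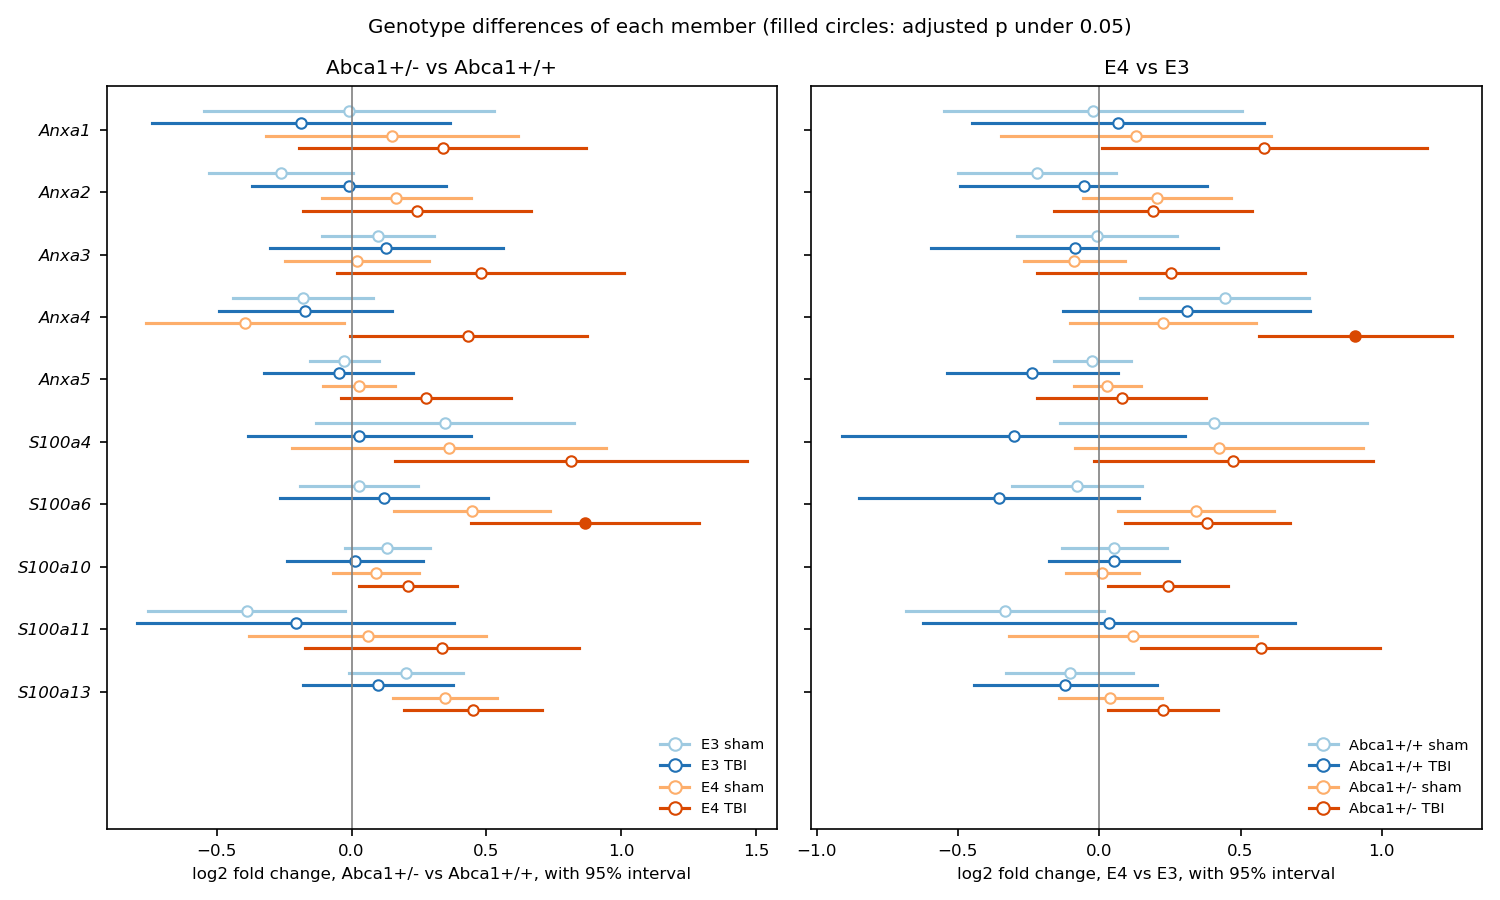
Log2 fold changes between Abca1 copies (left) and between APOE isoforms (right) for each member, by the other factors, with 95% intervals; filled circles passed an adjusted p of 0.05 in edgeR's test. The 2 filled circles are S100a6 in injured E4 mice (0.87) and Anxa4 in injured Abca1+/- mice (0.91).

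Between isoforms, Anxa4 was higher in injured E4/Abca1+/- than in injured E3/Abca1+/- mice by a log2 change of 0.91 (SE 0.16, adjusted p = 0.00782, edgeR). It was 1 of 10 members called, where 1.1% of all genes were called higher and 2.9% in either direction. All 8 E4 mice, at 13.02 to 29.6 CPM, were above all 6 E3 mice, at 8.23 to 11.8 CPM, as was so for 0.679% of genes. The call held in each of 14 fits without 1 mouse (log2 change 0.80 to 0.98). In 4 of the 8 E4 mice and 1 of the 6 E3 mice Ttr was over 100 CPM, and summed choroid plexus markers ran from 14.6 to 2051 CPM in the former group and from 12.3 to 1886 CPM in the latter. Without these 5 mice the ranges were 13.02 to 24.2 and 8.23 to 11.8 CPM and still did not overlap, while the log2 change was 0.74 and did not pass (adjusted p = 0.202, edgeR), with 22 genes called in all.

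In the same comparison S100a6 (0.38), S100a11 (0.57), S100a13 (0.23), S100a10 (0.24) and Anxa1 (0.58) were, with Anxa4, past an unadjusted p of 0.05 (18.7% of genes) but, unlike it, not the adjusted threshold (adjusted p = 0.131 to 0.261, edgeR). Without E4/Abca1+/- TBI replicate 4 S100a6 also passed. In the other 3 pairs of groups edgeR called 0 members. At an unadjusted 0.05 these held Anxa4 in Abca1+/+ sham mice (0.44, adjusted p = 0.281; 8.75% of genes past it and 0.349% called), S100a6 in Abca1+/- sham mice (0.34, adjusted p = 0.131; 23.2% and 5.13%) and no member in Abca1+/+ TBI mice (7.2% and 0.211%), and DESeq2 called 0 members in these 3 pairs. Averaged over Abca1 copies and injury, Anxa4 was higher in E4 mice by 0.47 (SE 0.09, adjusted p = 0.000223, edgeR), the only member past the threshold, where 8.03% of all genes were higher. It also passed without the mice high in Ttr, at 0.37.

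Whether the injury difference itself changed with genotype was tested as an interaction, for which edgeR called 0 of 15171 genes in each case. The injury difference of Anxa4 was larger in E4/Abca1+/- than in E4/Abca1+/+ mice by 0.84 on the log2 scale (unadjusted p = 0.00848, adjusted p = 0.952) and larger than in E3/Abca1+/- mice by 0.70 (unadjusted p = 0.00626, adjusted p = 0.722, edgeR). S100a10 was larger by 0.25 in the second of these (unadjusted p = 0.0468, edgeR). At an unadjusted p of 0.05 the interactions of injury with Abca1 held 735 genes in E4 mice (4.84%, 1 member) and 326 in E3 mice (2.15%, 0 members), and those with the isoform 962 genes in Abca1+/- mice (6.34%, 2 members) and 321 in Abca1+/+ mice (2.12%, 0 members). DESeq2's Wald test called 3 genes in the interaction of isoform and injury in Abca1+/- mice, and 0 of them were members.

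Both sexes were in every group. In TBI mice Anxa5 had 45.8 to 76.2 CPM in females (median 55.5, n = 14) and 35.3 to 69.1 CPM in males (median 43.2, n = 15), and Anxa3 had 12.2 to 44.7 (median 27.1) and 11.5 to 30.3 CPM (median 17.0). Sham females and males lay together, at 27.8 to 35.6 and 25.6 to 36.1 CPM for Anxa5. The injury difference was larger in females by 0.34 for Anxa5, 0.49 for Anxa4, 0.45 for Anxa3 and 0.40 for Anxa2 on the log2 scale. These 4 members were past an unadjusted p of 0.05, as were 7.67% of all genes, and edgeR called 0 genes after adjustment (adjusted p = 0.399 to 0.488), against 4 genes by DESeq2 that were not members.

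Pairs whose proteins bind were compared across mice by the correlation of log2(CPM + 1) after each group's mean was subtracted, in 8 relations, with permutation tests of 100000 resamples. In TBI mice Anxa2 and S100a6 varied together, with r = 0.82 and rho = 0.81 (n = 29, permutation p = 1e-05, the smallest these permutations can give, adjusted p = 8e-05). Without the 2 mice farthest from the median of Anxa2 r was 0.75, and it was 0.67 within 14 Abca1+/- mice and 0.90 within 15 Abca1+/+ mice. Anxa2 and S100a4 had r = 0.58 and rho = 0.60 (permutation p = 0.00289, adjusted p = 0.0116), 0.55 without 2 mice, 0.41 in Abca1+/- and 0.68 in Abca1+/+ mice.

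The pair that forms the classical complex, Anxa2 and S100a10, had r = 0.50 (permutation p = 0.00901, adjusted p = 0.024) and rho = 0.41 (permutation p = 0.0367, adjusted p = 0.0734), and r fell to 0.35 without 2 mice and was 0.24 within Abca1+/- and 0.66 within Abca1+/+ mice. Anxa1 and S100a11 had r = 0.43 (permutation p = 0.0211, adjusted p = 0.0422) and rho = 0.52 (adjusted p = 0.0131), 0.43 without 2 mice, 0.62 within Abca1+/- and 0.36 within Abca1+/+ mice. With a pseudocount of 0.1 its r was 0.39 and did not pass (permutation p = 0.0313, adjusted p = 0.0627). In sham mice none of the 4 pairs passed, with r of 0.29 for Anxa2 and S100a10, 0.29 for Anxa1 and S100a11, 0.13 for Anxa2 and S100a4 and −0.02 for Anxa2 and S100a6 (permutation p, adjusted, from 0.194 to 0.945). Differences between pairs, and between TBI and sham mice, in these correlations were not tested. Correlation was not limited to pairs that bind: over 58 mice with group means removed, r was above 0 for all 45 pairs of members (0.18 to 0.79, median 0.51), and it was 0.79 for Anxa2 and Anxa5 and 0.76 for Anxa2 and Anxa4, beside 0.60 for Anxa2 and S100a6 and 0.44 for Anxa2 and S100a10.

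**Figure D4:**
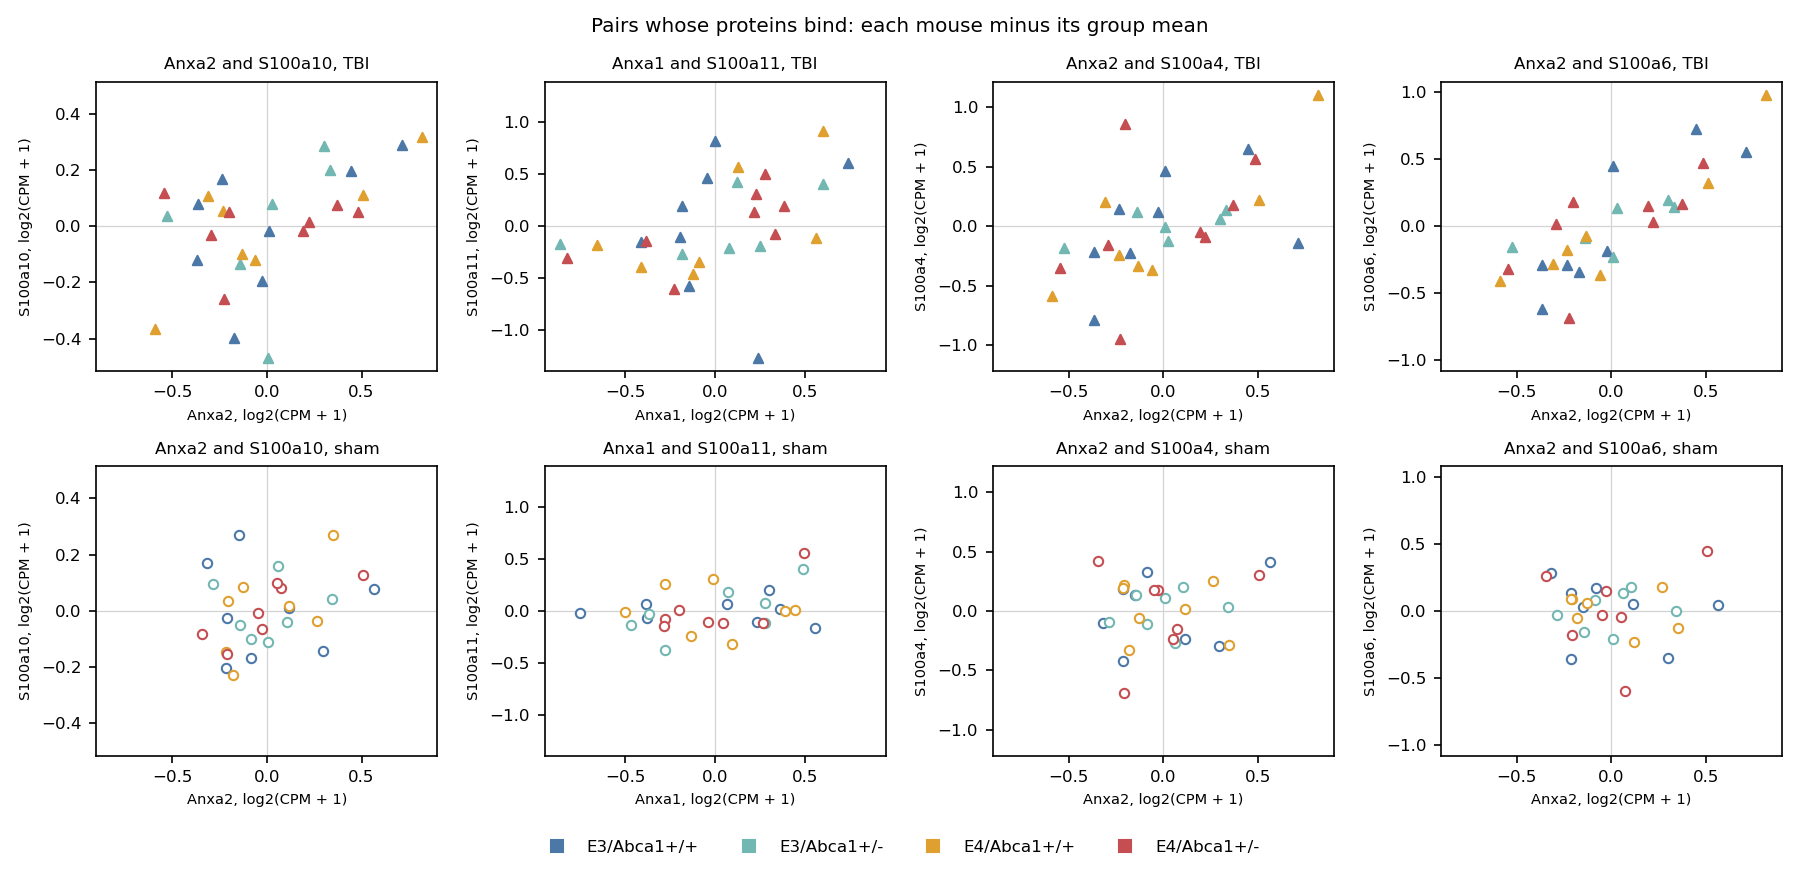
Each mouse's log2(CPM + 1) of an annexin (horizontal) and of the S100 gene whose protein binds it (vertical), minus the mean of its group, for 29 TBI mice (triangles, top) and 29 sham mice (circles, bottom), coloured by genotype. TBI mice spread along a rising line for Anxa2 and S100a6 (r = 0.82), where sham mice show none (r = −0.02).

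The genes of the whole table whose values followed each member most closely, over 58 mice with group means removed, were in part shared between members. Cp, Pros1, Abhd4, Fxyd1 and Gpsm3 each followed more than 1 member. Anxa2 was followed by Serping1 (r = 0.89), Col4a6 (0.87) and Pros1 (0.85), Anxa5 by Cp (0.90), Cnn3 (0.88) and Lamp2 (0.87), and Anxa3 by Ms4a6c (0.85), Cybb (0.84) and Rab7b (0.83). Anxa4 was followed by Cp (0.79), Vcam1 (0.78) and Pros1 (0.78), and Anxa1 by Adamtsl3 (0.82) and Eya2 (0.75). Cp (ceruloplasmin) thus stood first for 2 annexins. Among the S100 genes, S100a6 was followed by Ctsl (0.87), Vim (0.85) and S1pr3 (0.83), and S100a4 by Il21r (0.75), Grn (0.74) and its neighbour S100a6 (0.74). S100a11 was followed by Abhd4 (0.78), Fxyd1 (0.76) and Clu (0.75), S100a13 by Fxyd1 (0.73), S100b (0.71) and Gpsm3 (0.69), and S100a10 by Gpsm3 (0.68), Abhd4 (0.67) and S100a11 (0.63). The labels used here give no batches of library preparation, and no test was made of these correlations.

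Of 7 other annexins listed 5 were in the table. Averaged over the genotypes, Anxa9 (log2 change 0.64, at 0 to 50 counts per mouse) and Anxa7 (0.05) rose, Anxa11 fell by 0.27 on the log2 scale, and Anxa6 (0.05, adjusted p = 0.117) and Anxa8 (0.33, adjusted p = 0.241, edgeR) did not pass. Anxa6, the annexin with a doubled core, had 102 to 136 CPM in sham and 107 to 149 CPM in TBI mice. The median of the 5 was 0.05. Of 11 other S100 genes listed 5 were in the table, and all 5 rose, where 29% of all genes rose: S100a8 (3.61), S100a9 (2.94), S100a1 (0.58), S100b (0.57) and S100a16 (0.47). S100a8 and S100a9, which form calprotectin in neutrophils, had at most 0.748 CPM in any sham mouse. In TBI mice they had medians of 1.02 and 1.24 CPM and reached 8.01 and 9.86 CPM. S100a8 was at 0 in 8 sham mice, and S100a9 in 5 sham mice and 1 TBI mouse. Their fitted changes thus rest on few sham counts and are not bounds. S100b, the classical astrocyte S100, had 85.0 to 127 CPM in sham and 110 to 209 CPM in TBI mice.

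**Figure D5:**
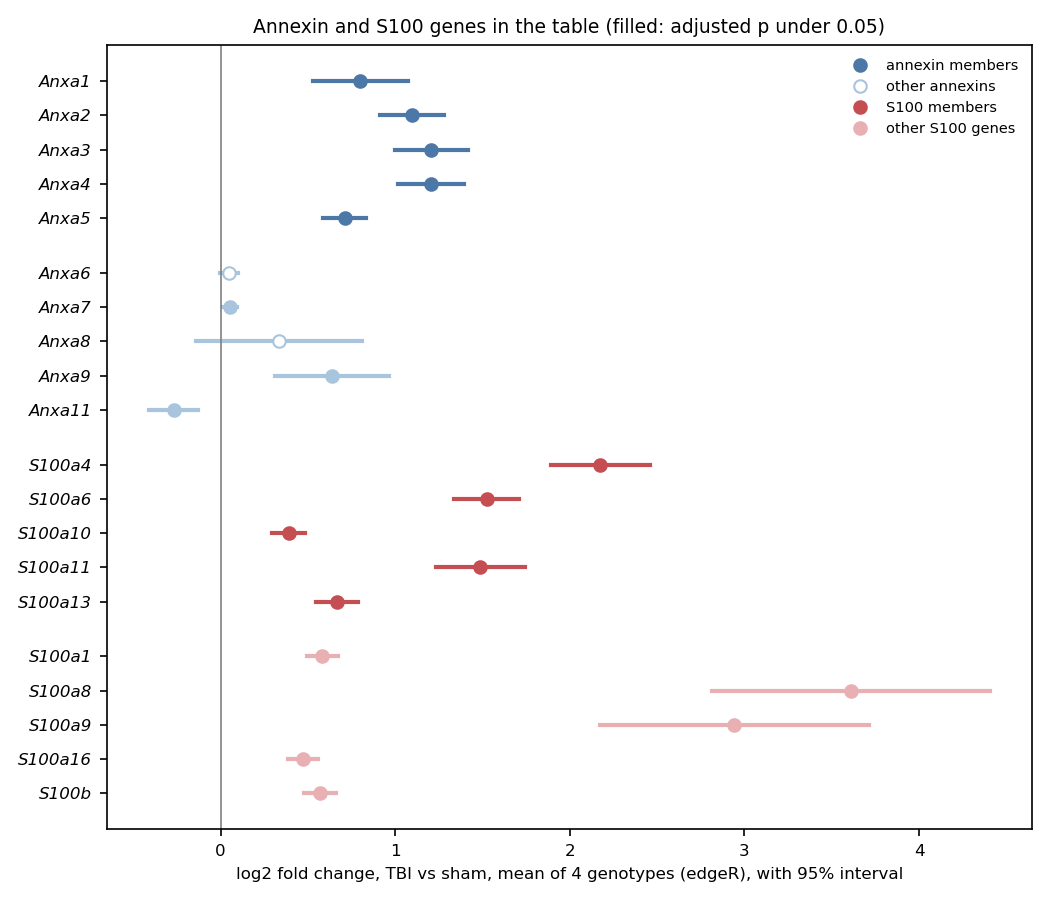
Log2 fold change of TBI against sham, averaged over the 4 genotypes, for the 5 annexin and 5 S100 members (dark) and for the other annexin and S100 genes in the table (pale), with 95% intervals; open circles did not pass an adjusted p of 0.05. The 10 members lie between 0.39 and 2.18, the other annexins between −0.27 and 0.64, and the other S100 genes between 0.47 and 3.61. Members were chosen with earlier results of these data known, so the contrast with the other genes is no test.

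Of 20 genes listed as partners, receptors and membrane repair genes 18 were in the table. Averaged over the genotypes, 13 rose and 1 fell after TBI (median log2 change 0.24, beside 0.01 over all genes), where 29% of all genes rose. The share that fell is not given here. Of the plasminogen system, which Anxa2 and S100a10 serve at the cell surface, genes that rose were Plau (1.32) and Plat (0.22), which activate plasminogen, and the receptor Plaur (0.93). The S100 receptors Tlr4 (1.13) and Ager (1.08, at most 2.13 CPM) rose, as did the membrane repair genes Myof (0.91), Ahnak (0.56), Cav1 (0.48), Dysf (0.26) and Capn2 (0.20), and Fgf1 (0.13), the cargo of S100a13, and Hltf (0.11). Kcnk3, the potassium channel whose transport S100a10 is known to affect, fell by 0.48 on the log2 scale. Capn1, Cacybp, Htr1b and Htr4 did not pass (log2 changes −0.11 to −0.01, adjusted p = 0.290 to 0.851, edgeR).

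Markers of several cell types moved with injury, counted here from the average over the 4 genotypes, where 29% of all genes rose. All 8 microglia markers rose, their sum being 317 to 495 CPM in sham and 587 to 1256 CPM in TBI mice, and 7 of 8 macrophage markers (8.17 to 69.6 and 61.3 to 691 CPM). All 8 astrocyte markers rose (4679 to 6137 and 6078 to 10258 CPM), as did all 8 of fibroblasts and leptomeninges (153 to 295 and 103 to 693 CPM) and 5 of 7 endothelial markers. Of 5 T cell markers listed only 3 were in the table, and these 3 rose at a low level (0.599 to 2.06 and 1.05 to 13.2 CPM). The 2 of 5 ependymal, 1 of 5 mural and 2 of 6 oligodendrocyte markers that rose were near the share of all genes. All 7 neuron markers fell (7848 to 8907 and 5606 to 7947 CPM), and of the hippocampal neuron markers 1 of 6 rose and 2 fell. The share of all genes that fell is not given here, so the counts of markers that fell are a description only. Of the 6 choroid plexus markers 0 passed in this average, and 1 rose in E3/Abca1+/+ mice (lowest adjusted p = 0.0122, edgeR). Of 6 neutrophil markers only S100a8 and S100a9 were in the table. No marker in the table was at 0 in every mouse, and neuron and astrocyte markers were high in all mice of the labelled brain tissue. The part that shifts in these cell types had in the rise of the members was not tested.

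The sum of the microglia markers was 776 to 1256 CPM (median 1003) in E4/Abca1+/- TBI mice, 587 to 1074 CPM (median 686) in E4/Abca1+/+ TBI mice and 630 to 868 CPM (median 738) in E3/Abca1+/- TBI mice, and that of the macrophage markers 95.9 to 691, 70.9 to 581 and 74.8 to 359 CPM. In the comparison of Abca1 copies that called S100a6, 1 of 8 microglia markers was higher, against 0.547% of all genes. In the comparison of isoforms that called Anxa4, 2 of 8 were higher, against 1.1% of all genes. Of the macrophage markers 0 of 8 were higher in either comparison. Averaged over groups 3 of 8 microglia markers were higher in Abca1+/- mice, against 9.49% of all genes, and 1 of 8 in E4 mice, near the 8.03% of all genes, and 0 of 8 macrophage markers in either (edgeR). The part of these cells in the values of S100a6 and Anxa4 was not tested.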

How the data were processed

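RNA was extracted from cortex and hippocampus of single mice. Per the submitters' processing notes and the study's methods, the authors aligned and summarized reads with Subread 1.5.0 and featureCounts on mm10 and deposited read counts per gene, not normalized. The annotation, the strand setting and the rule by which genes were listed are not given in the sources used here. The table held 15171 genes; 2 blank lines were removed and 23 date-like symbols were restored from the gene IDs. Every mouse's column was used. Among 183 pairs of mice within groups, 0 had identical counts.

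The 10 members and all gene and marker lists were chosen with earlier results of these data known. Members were matched by symbol, and the named genes were the members, fixed lists of relatives, partners and markers, and the 3 genes of at least 1 mean CPM most correlated with each member; 2 of these genes are counted where lists are counted but not reported here by name. Counts were tested with edgeR 4.0.16 (R 4.3.3, limma 3.58.1): TMM factors within each fit, filterByExpr (0 genes removed), the quasi-likelihood test with only the groups compared, or all 58 mice for averages over groups, and Benjamini-Hochberg adjustment over all genes with a threshold of 0.05. Standard errors came from the F statistic. CPM used TMM factors over all mice (0.954 to 1.04). The floor of 3 counts covers counting error only, while the 95% intervals are the edgeR fit's, over mice; the totals of 4421308 to 37877346 counts set the precision. Correlations used a pseudocount of 1. Alternatives were DESeq2 1.42.0 (size factors and Wald test), no filter, at least 10 counts in every mouse, sex as a covariate, 1 fit over all mice, thinning to 4421308 counts, the unadjusted p, a pseudocount of 0.1 and each mouse left out. The fits without mice over 100 CPM of Ttr or without 1 of 2 chosen E4/Abca1+/- mice, and the single-mouse fits of the genotype comparisons, were chosen after seeing the data. The tests were tried on simulated counts. Gene positions are from RefSeq (GRCm38), promoters from RefSeq (GRCm38.p6) and exon lengths from GENCODE vM21. Tables and figures were made in Python 3.11.15 (pandas 2.3.3, matplotlib 3.10.9, scipy 1.17.1, numpy 2.4.6).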

Additional observations from a re-analysis of the deposited data

Results flagged for a closer look

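In 8 of 80 sets of a member's values in a group, the highest or lowest mouse stood apart from the others by Dixon's criterion, where chance gives about 4. E3/Abca1+/+ TBI replicate 8 had 7.29 CPM of Anxa1 against 2.74 to 4.86 CPM in the other 7 mice, and 36.5 CPM of Anxa3 against 14.8 to 24.0 CPM. E4/Abca1+/- sham replicate 2 had 19.7 CPM of Anxa2 (others 10.5 to 14.3), 12.3 CPM of Anxa3 (others 8.33 to 9.78) and 3.01 CPM of S100a11 (others 1.48 to 1.75). E4/Abca1+/+ TBI replicate 6 had 10.4 CPM of S100a4 (others 2.51 to 5.15) and 46.0 CPM of S100a6 (others 17.0 to 28.8). S100a10 was low in E4/Abca1+/- TBI replicate 4, at 21.4 CPM against 25.2 to 28.0 CPM in the other 7 mice. The 8 cases thus came from 4 mice.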

How the results depend on the processing

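Of the member values for TBI against sham, 422 kept their direction and side of the threshold under alternatives other than leaving out 1 mouse, 6 lost and 3 gained a call; without 1 mouse 585 kept it, 13 lost and 2 gained it. None of these reversed, and the genes were Anxa1, Anxa4 and S100a10. For genotype or sex, over the differences with an unadjusted p under 0.05, the numbers were 202, 4 and 27, and 146, 15 and 3. Calls gained there by the unadjusted p follow from that selection. The members called per genotype numbered 9 to 10, 8 to 9, 9 to 10 and 10 to 10 without 1 mouse (E3/Abca1+/+, E3/Abca1+/-, E4/Abca1+/+, E4/Abca1+/-) and 10, 9, 7 and 9 without mice high in Ttr. With at least 10 counts in every mouse, 7, 8, 7 and 10 were called, as fewer members could be tested. The share of all genes called in each of these refits is not given here, so shifts in these counts may not be particular to the members. Other scalings moved the median of all genes by less than 0.1 (log2).

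For Abca1 copies in E4 TBI mice, 1 member called in the report became 4 with the unadjusted p, 2 with DESeq2's Wald test, 2 with sex as a covariate, 3 in 1 fit over all 58 mice, 0 after thinning, 0 without mice high in Ttr and 0 to 3 without 1 mouse. For the isoform in Abca1+/- TBI mice, 1 became 6 with the unadjusted p, 0 without mice high in Ttr and 1 to 2 without 1 mouse. From 0, the unadjusted p gave 1 member for Abca1 copies in E3 sham mice, 3 in E4 sham mice (1 with DESeq2's Wald test), 1 for the isoform in Abca1+/+ sham mice, 1 in Abca1+/- sham mice, 1 and 2 for the interactions of injury with Abca1 in E4 mice and with the isoform in Abca1+/- mice, and 4 for sex. For most of these refits the share of all genes called is not given here, so the changes in count are no result about the members. The cause was not tested.

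With a pseudocount of 0.1 the correlation of Anxa1 and S100a11 in TBI mice was 0.39 (permutation p = 0.0313, adjusted p = 0.0627). In sham mice signs turned for Anxa1 and S100a11 within Abca1+/+ mice (r = −0.10), Anxa2 and S100a4 without 2 mice (−0.12) and Anxa2 and S100a6 within Abca1+/- mice (0.24). A further 122 member differences between genotypes or sexes had an unadjusted p of 0.05 or more, so the unadjusted p could not call them. Of their 1264 values under the alternatives, 62 had the opposite sign and 0 passed the threshold. No paired analysis was possible because the labels name each mouse by an animal number and pair none of them. The depth limits Anxa1, S100a4 and S100a11, which had as few as 6, 3 and 6 counts in a mouse.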
